A study of Saccharomyces cerevisiae with 24 samples.

Results

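The 5′ external transcribed spacer (5′ ETS) of budding yeast precedes 18S in RDN37, the polymerase I precursor of ribosomal RNA encoded in the rDNA array on chromosome XII. Its first 280 nucleotides are described here at their A and C, the bases that dimethyl sulfate (DMS) methylates on the Watson-Crick face. They were chosen by position alone, as every A and C at positions 1 to 280. There are 118 of them, 72 A and 46 C, among 3131 A and C in the 6858 nucleotides of the transcript.

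The data were DMS-MaPseq profiles, in which the TGIRT-III reverse transcriptase reads a methylated base as a mismatch, so that the mutation rate per nucleotide (mutated reads over effective depth) reports how open a base is. Pre-40S particles had been purified through tagged Utp9 from cells in mid-log phase in YPD with Rrp5_mL or with wild-type (WT) Rrp5, both carrying H375A, and received 1% DMS for 5 min at 30 °C or no DMS. Each of these 4 groups had 3 libraries, described by the submitters as biological replicates. Mature ribosomes of BY4741 lacking snr31 and snr54, and of BY4741, with and without DMS and with 3 libraries a group, entered for depth alone. The conditions recorded for every library include 800 mM HEPES, 500 mM NaCl and 50 mM MgOAc2. The meaning of mL, and the protein that bears H375A, were not stated in the labels. The RNA came from purified particles, so nothing here describes the spacer outside them.

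The 5′ ETS is the first section of the precursor to be made. It recruits the UTP-A complex, to which Utp9 belongs, then UTP-B and U3, and so starts assembly of the small-subunit processome. It is cut away from 18S and degraded, and mature ribosomes do not contain it. The name UTP-A side comes from this order of assembly; the files hold no measure of protein contact, and the protein that carried the affinity tag is itself a part of UTP-A.

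The sequence of positions 1 to 280 is shown because the reactive bases are scattered over it in short groups. The letters are those of the deposited profiles, from 5′ to 3′ on the transcript strand, and capitals mark the 14 A and C with a mean DMS mutation rate of at least 5% in WT particles.
RDN37 positions 1 to 280: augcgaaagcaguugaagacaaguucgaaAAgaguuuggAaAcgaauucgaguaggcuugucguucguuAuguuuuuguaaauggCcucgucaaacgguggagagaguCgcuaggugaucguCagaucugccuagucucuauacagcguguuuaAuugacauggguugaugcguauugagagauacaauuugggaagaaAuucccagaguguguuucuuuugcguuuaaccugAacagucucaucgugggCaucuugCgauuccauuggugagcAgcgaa

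These 280 nucleotides were well covered in the particles. Median effective depth per A or C was 691.5, 1676.5 and 1355.5 in DMS-treated mL libraries and 791.5, 874.5 and 611 in DMS-treated WT libraries. Without DMS it was 814.5, 883.5 and 1478 with mL and 126.5, 899 and 1084 with WT, so that 1 mutated read weighs most in WT untreated replicate 1. Of the 118 bases 117 had a depth of at least 50 in every DMS-treated pre-40S library, and A1, the first base of the transcript, did not. WT untreated replicate 2 stood apart in 18S, where 1 site had 399112 reads. Its mean rate at U of 18S was 0.846%, against 0.239% and 0.194% in WT untreated replicates 1 and 3. At A of 25S it was 0.415%, against 0.0941% and 0.171%. Over the first 280 nucleotides its depth lay between those of the other untreated WT libraries. So did its mean rate at A there, 0.0647% against 0.0879% and 0.0198%.

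With DMS a few bases of the spacer were far more reactive than the rest. In DMS-treated mL particles 15 of the 117 covered bases had a mean rate of at least 5%, and in WT particles 14 did. The sets shared 13 bases. The exceptions were close to 5% in both groups: A161 averaged 5.13% ± 0.609 with mL and 4.94% ± 1.13 with WT, A198 averaged 5.19% ± 0.528 and 4.82% ± 0.623, and A70 averaged 4.98% ± 0.882 and 5.42% ± 0.502 (SD, n = 3). At the low end 50 of the 117 bases were under 0.5% in both groups. C was the more divided base, with 34 of 46 C under 0.5% with mL and 32 of 46 with WT, against 19 and 25 of 71 A.

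Reaction with DMS was tested against the untreated libraries of the same strain by edgeR's quasi-likelihood test on mutation counts, with the effective depth as offset, over all sites of RDN37 with at least 10 mutations. With mL 75 of the 118 bases rose, 62 A and 13 C; 18 were tested without a call, 24 had too few mutations and 1 too little depth. With WT 58 rose, 47 A and 11 C; 7 were tested without a call, 52 had too few mutations and 1 too little depth. None fell in either strain. Among all A and C tested along RDN37, 81.5% rose and 0.76% fell with mL, and 82.8% rose and 0.743% fell with WT. A base with few mutations is kept by this filter mainly when DMS raises it, so the shares over tested bases are no measure of how reactive the spacer is. All 58 bases that rose with WT also rose with mL, where they made up 77.3% of the calls. Of the calls made with mL alone, 15 concerned bases not tested with WT.

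**Figure D1:**
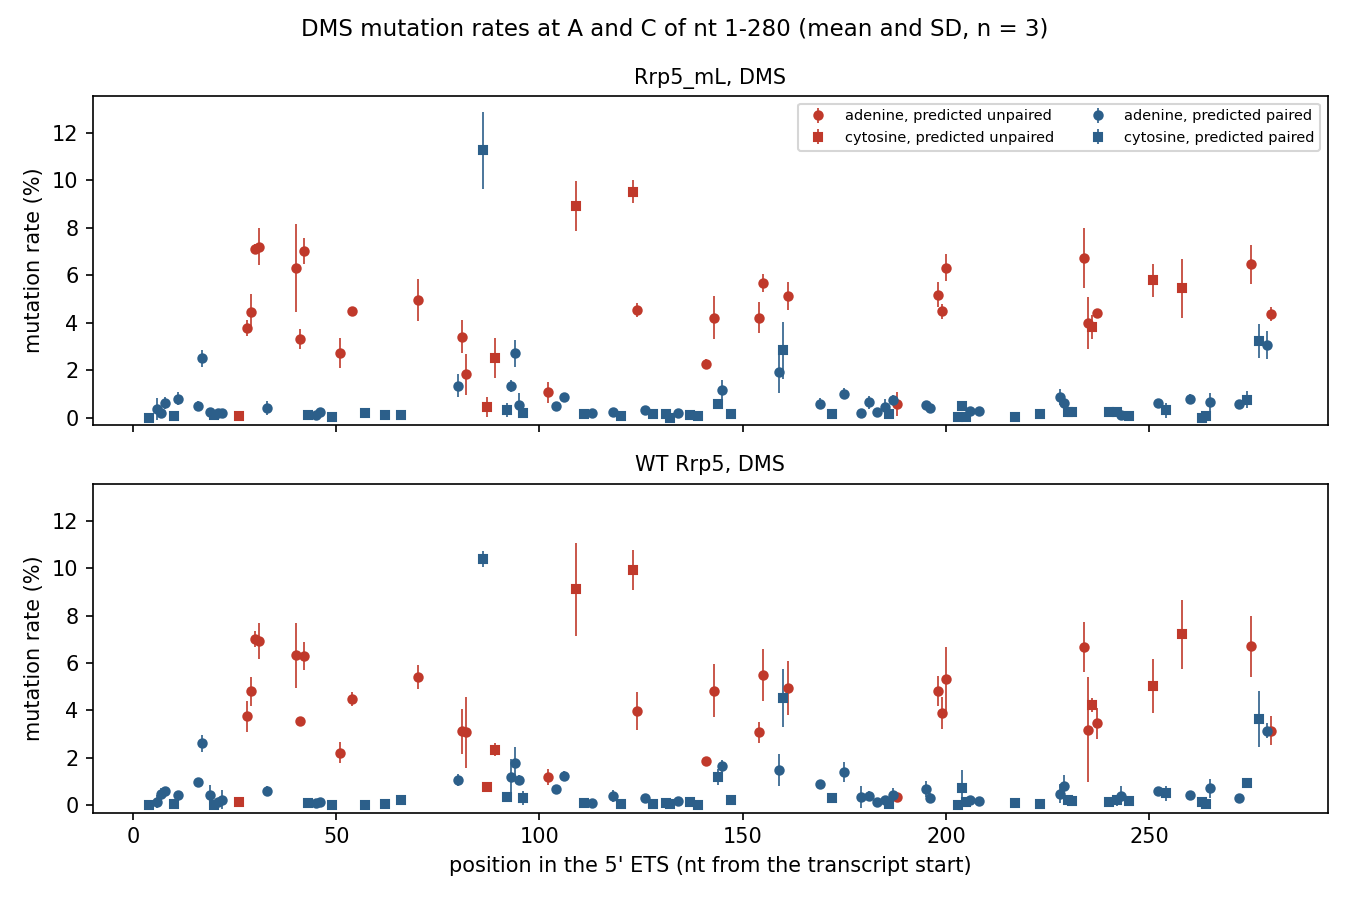
Mean mutation rate (%, with SD over 3 libraries) at each covered A (circles) and C (squares) against position, with Rrp5_mL above and WT Rrp5 below; red marks bases predicted unpaired and blue bases predicted paired. The same short groups of bases stand up in both panels, and C86 is the only predicted paired base above 5%.

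Most reactive bases lay in places that a folding prediction leaves single-stranded. The minimum free energy structure of positions 1 to 280, computed by RNAfold at 30 °C from the sequence alone, left 76 nucleotides unpaired, among them 37 of the 118 A and C. Of the 28 covered A predicted unpaired, 10 had a mean rate of at least 5% with mL and 9 with WT, and none of the 43 predicted paired did in either group. Under 0.5% were 0 of the 28 with mL and 1 with WT, against 19 and 24 of the 43 predicted paired. Of the 8 C predicted unpaired 4 were at or above 5% in each group, and of the 38 predicted paired 1 was, C86.

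The mean rate at A predicted unpaired was 4.58%, 4.39% and 4.59% in the mL libraries and 4.06%, 4.12% and 4.67% in the WT libraries. At A predicted paired it was 0.763%, 0.698% and 0.689% with mL and 0.667%, 0.704% and 0.757% with WT. Every library thus had the larger value at unpaired A, by 3.39 to 3.92 percentage points. C gave 4.58% ± 0.179 with mL and 4.85% ± 0.546 with WT where unpaired, and 0.62% ± 0.0553 and 0.68% ± 0.0294 where paired (SD, n = 3). The prediction ignores proteins and U3, and it is a description of the sequence; no test was made of it.

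**Figure D2:**
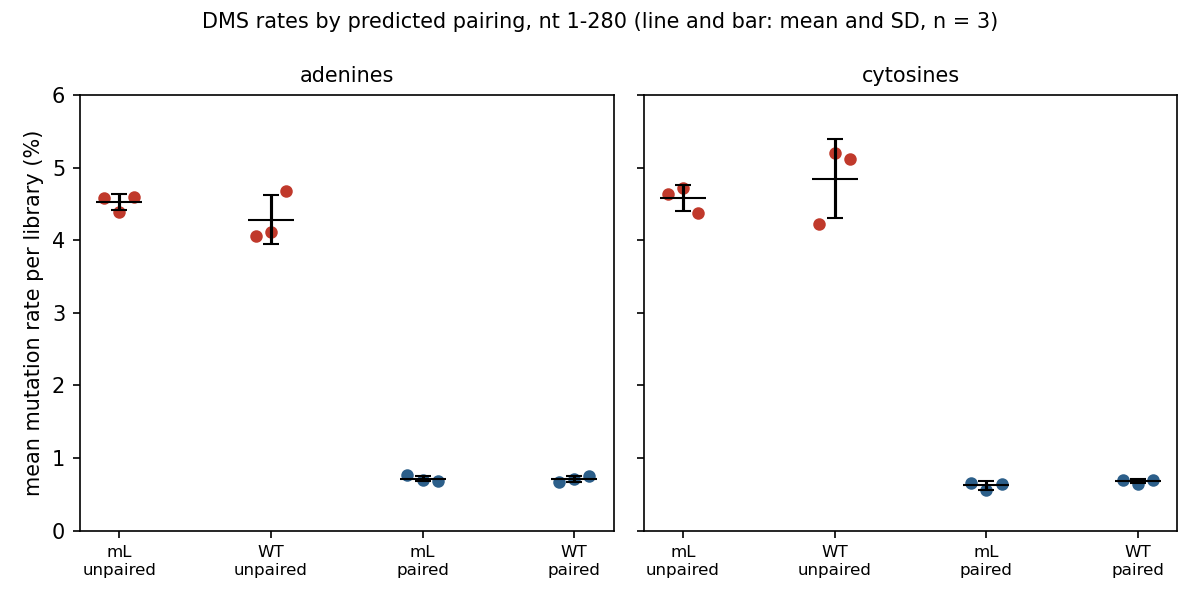
Mean mutation rate per library (%) at A (left) and C (right) of positions 1 to 280, by predicted pairing and Rrp5 form; points are libraries, lines and bars the mean and SD of 3. Unpaired A lie between 4.06% and 4.67% and paired A between 0.667% and 0.763%.

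The predicted structure ends in 4 hairpin loops, printed here with the uninterrupted stem that closes each, since they carry 9 of the 37 unpaired A and C. Capitals mark the A and C of the loop.
Hairpin at positions 32 to 49: gaguuuggAAAcgaauuc
Hairpin at positions 117 to 128: gaucguCAgauc
Hairpin at positions 189 to 208: uuugggaagAAAuucccaga
Hairpin at positions 252 to 261: aucuugCgau

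In the hairpin at 32 to 49 the 3 loop A averaged 5.55% ± 0.58 with mL and 5.39% ± 0.585 with WT, and the 5 A and C of its stem averaged 0.188% ± 0.0712 and 0.204% ± 0.0208 (SD, n = 3). The hairpin at 117 to 128 had 7.04% ± 0.138 and 6.95% ± 0.683 in its loop and 0.211% ± 0.00837 and 0.216% ± 0.066 in its stem. In both hairpins every loop base was above every stem base: the highest mean at a stem base was 0.618%, and the lowest at a loop base 3.33%. The hairpin at 189 to 208 had 5.33% ± 0.114 with mL and 4.67% ± 0.796 with WT in its loop, and 0.3% ± 0.0181 and 0.339% ± 0.15 in its stem. The short hairpin at 252 to 261 has a single loop C, C258, at 5.46% ± 1.24 and 7.21% ± 1.46, above 0.59% ± 0.159 and 0.519% ± 0.161 in its stem.

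The hairpins at 32 to 49 and at 189 to 208 share a loop of the letters GAAA, a sequence of the GNRA tetraloop family, whose loops are known to fold compactly through a sheared pair of the first and last base. The middle A was the least reactive of the 3 in each. A40, A41 and A42 averaged 6.30%, 3.33% and 7.03% with mL and 6.32%, 3.55% and 6.30% with WT. A198, A199 and A200 averaged 5.19%, 4.49% and 6.33% with mL and 4.82%, 3.89% and 5.32% with WT. The middle A was below both neighbours in 6 of 6 DMS-treated libraries in the first loop and in 6 of 6 in the second. These bases were compared after their values had been seen.

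The 12 bases with the highest mean WT rate began with 4 C. C86 had 11.9%, 9.44% and 12.5% with mL and 10.3%, 10.1% and 10.7% with WT, at depths of 454 to 1239. It is the strongest base of the stretch and the only one at or above 5% that is predicted paired. The prediction pairs it with position 276, next to the unpaired A275, and pairs its neighbour 85 with 277. Positions 84, 87 and 278 are unpaired too, so this helix is very short in the fold of positions 1 to 280. C123, in the loop at 121 to 124, had 8.98%, 9.79% and 9.82% with mL and 9.24%, 9.65% and 10.9% with WT. C109, in a predicted bulge, had 10.1%, 8.12% and 8.54% with mL and 6.84%, 10.2% and 10.3% with WT. The groups overlapped at all 3 of these bases in the unscaled rates.

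Among the A, neighbours A30 and A31 led. A30 had 7.08%, 6.98% and 7.33% with mL and 7.24%, 6.61% and 7.18% with WT, and A31 had 7.05%, 6.54% and 8.06% with mL and 6.19%, 6.87% and 7.70% with WT. They close a run of 4 A at positions 28 to 31 in an internal loop, along which A28, A29, A30 and A31 averaged 3.80%, 4.48%, 7.13% and 7.22% with mL and 3.76%, 4.81%, 7.01% and 6.92% with WT. A275 had 5.55%, 7.13% and 6.76% with mL and 5.59%, 6.44% and 8.10% with WT, and A234 had 7.92%, 5.44% and 6.86% with mL and 7.80%, 6.45% and 5.74% with WT. A155 averaged 5.69% ± 0.381 with mL and 5.50% ± 1.11 with WT (SD, n = 3). At none of these A did the 2 groups separate.

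A few bases went against the prediction in the other direction. A188, predicted unpaired between paired neighbours, had 0.595% ± 0.495 with mL and 0.376% ± 0.0144 with WT, and C26, beside the run of 4 A, had 0.0759% ± 0.03 and 0.166% ± 0.156. Among bases predicted paired, after C86 the highest WT means were C160 at 4.52%, C277 at 3.63%, A279 at 3.15% and A17 at 2.61%. C160 closes a predicted helix with position 90, C277 pairs with 85 next to C86, and A279 forms a lone pair with 83. These bases were picked out after their values were seen. A fold of positions 1 to 700 in place of 1 to 280 changed the state of 9 nucleotides, A82, G84, C87, U88, C89, G276, C277, G278 and A280. It left C86 paired but with another partner, since G276 is unpaired in it. In that longer fold positions 82 to 97 are all paired, so the short helix around C86 is a feature of the shorter fold alone.

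Reactivity did not follow one trend along the spacer. Over 7 windows of 40 nucleotides the mean rate at A was highest at positions 41 to 80, at 3.04% ± 0.0409 with mL and 2.91% ± 0.196 with WT, and lowest at 81 to 120, at 1.28% ± 0.113 and 1.39% ± 0.124 (SD, n = 3). C ran the other way between these windows: it was highest at 81 to 120, at 2.99% ± 0.216 and 2.93% ± 0.289, which holds C86 and C109, and 0.122% ± 0.0161 and 0.0925% ± 0.0381 at 41 to 80. Its lowest mean was at 1 to 40, at 0.0686% with mL and 0.0678% with WT. Each window held 7 to 16 A and 2 to 9 C, so single bases weigh on these means. The profile was stable between libraries. Across the 117 covered bases Pearson's r of log2(rate + 0.1%) was 0.885 to 0.956 between libraries of one group and 0.872 to 0.948 between mL and WT libraries; the bases share their sequence and each library's depth, and no p is given.

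The mean rate at A was lower in the first 280 nucleotides than in the rest of the 5′ ETS. A averaged 2.22% ± 0.057 with mL and 2.12% ± 0.16 with WT at positions 1 to 280, against 2.44% ± 0.0294 and 2.40% ± 0.156 in the remainder up to position 700 (SD, n = 3; 71 and 124 covered A). All 6 libraries had the lower mean at positions 1 to 280, by 0.181 to 0.316 percentage points. The median over A differed by a mean of only -0.10 points, with libraries on both sides of 0. At C the mean difference was -0.05 points, with libraries from -0.26 to 0.14. At the boundary, the last 2 A, A279 and A280, had 3.08% and 4.39% with mL and 3.15% and 3.15% with WT, and the next A, A283, had 6.70% and 8.02%. No test was made of these means.

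Rrp5 is an RNA-binding protein needed for both subunits, and particles with Rrp5_mL were compared with those with WT Rrp5. Rates were first divided by a factor per library, its median ratio to the geometric mean of all 6 libraries, so that each change is relative to a typical site. The filter asked for 30 mutations in all and a treated rate 2 times the untreated one. This kept 63 of the 118 bases, 52 A and 11 C; 1 had too little depth, 52 too few mutations and 2 a rate too close to the untreated one.

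No base of the first 280 nucleotides was called between mL and WT by edgeR at an adjusted p under 0.05 over all 1124 sites tested, where 0.267% were called. At an unadjusted p under 0.05 there were 7, all lower with mL, which is 11.1% of the 63, against 7.65% of all sites in either direction and 3.56% lower. DESeq2 and limma also called 0 of the 63, with 1 and 2 at an unadjusted p under 0.05. The test of strain by DMS over the 12 libraries called 0 of 69 bases (edgeR, smallest adjusted p = 0.512, 4 at an unadjusted p under 0.05), where 1.29% of 927 sites were called and 8.52% were under 0.05 unadjusted. This last test used no library factor. With factors taken within treated and within untreated libraries it called 0 of the 69 bases and 9 of the 927 sites.

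**Figure D3:**
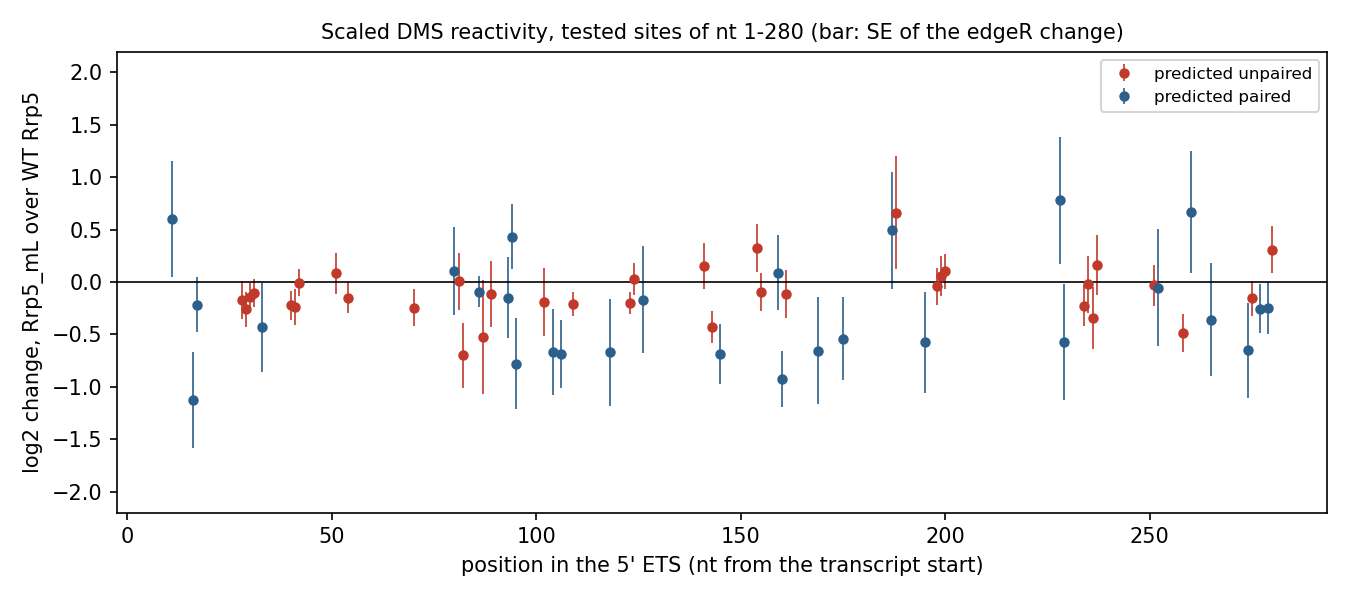
Log2 change of the scaled mutation rate, Rrp5_mL over WT Rrp5, at the 63 tested bases against position, with the SE of the edgeR change; red marks bases predicted unpaired and blue bases predicted paired. 46 points lie below 0 and 17 above it, and none was called.

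C160 came closest. Its scaled rate was 3.58%, 1.46% and 2.97% with mL and 7.36%, 4.44% and 3.14% with WT, so the groups overlapped, and WT replicate 1 was the highest library (log2 change -0.92, SE 0.264, n = 3, edgeR adjusted p = 0.0889). Without WT DMS replicate 3 it was called (log2 change -1.14, edgeR adjusted p = 0.0129), without WT DMS replicate 1 its log2 change was -0.56 and without mL DMS replicate 2 -0.60, and over all 16 alternatives the adjusted p ran from 0.0129 to 1.00. C258, the loop C of the hairpin at 252 to 261, had 4.17%, 6.69% and 4.66% with mL and 6.97%, 8.51% and 7.19% with WT after scaling, without overlap (log2 change -0.49, SE 0.183, edgeR adjusted p = 0.322). Its unscaled rates overlapped, at 4.37%, 6.80% and 5.20% with mL and 5.53%, 8.16% and 7.94% with WT, and the log2 change was -0.73 to -0.39 with 1 library left out and -0.34 with no library factor. A16 had 0.405%, 0.363% and 0.671% with mL and 1.42%, 1.02% and 0.807% with WT, also without overlap (log2 change -1.12, SE 0.46, edgeR adjusted p = 0.429). Neither was called.

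The other 7 bases with the smallest p also had lower values with mL and were not called (edgeR adjusted p from 0.296 to 0.729). A143 had scaled means of 3.98% ± 0.808 with mL and 5.12% ± 1.17 with WT, and A145, 2 positions on, 1.09% ± 0.334 and 1.77% ± 0.451 (SD, n = 3). A82 had 1.73% ± 0.768 and 3.16% ± 1.10, and A106 0.837% ± 0.114 and 1.35% ± 0.409. Of the strongest C of the stretch, C123 had 8.57%, 9.63% and 8.80% with mL and 11.6%, 10.1% and 9.83% with WT, without overlap once scaled, and C109 averaged 8.42% ± 1.06 and 9.51% ± 1.00. A95 had 0.522% ± 0.459 with mL and 1.15% ± 0.255 with WT, also without overlap.

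By direction, 46 of the 63 tested bases had a lower scaled rate with mL and 17 a higher one, and their median log2 change was -0.17, against 542 lower, 582 higher and a median of 0.01 over all 1124 sites. The remainder of the 5′ ETS had a median of -0.13 over 86 sites, and 18S 0.01 over 394. In the first 280 nucleotides the groups did not overlap at 8 of 63 bases, 12.7% against 11.8% of all tested sites, and 7 of the 8 were lower with mL. Of such sites 68 of 133 were lower over all tested sites, and 10 of 11 in the remainder of the 5′ ETS. All 7 windows of 40 nucleotides had more bases lower than higher, with window medians from -0.22 to -0.04. The direction depended on the scaling: without a library factor 32 of 63 were lower and the median of these bases was -0.0037, below the median of 0.20 over all sites. The median deviation of the 63 bases from their mean over the libraries was 0.06, -0.05 and -0.12 with mL and 0.26, 0.02 and -0.01 with WT, and without WT DMS replicate 1 the median change was -0.05 with 35 of 57 lower. What set WT replicate 1 apart was not tested.

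Without DMS mutations were rare. Over the 117 bases covered in the 6 untreated pre-40S libraries the median of the mean rate was 0.0545%, 90 were under 0.1%, 11 had no mutation in any library and the highest was 0.674%. The 5 highest means over the 6 libraries were at C, which depended on WT untreated replicate 1: without that library, left out after its values were seen, 3 were C (C144, C204 and C236) and A179 and A195, at 0.296% and 0.28%, took the places of C109 and C242. C204 had 0.124%, 0.365% and 0.533% with mL and 1.72%, 0.739% and 0.56% with WT, and C236 had 0%, 0.352% and 0.342% with mL and 1.52%, 0.832% and 0.2% with WT. WT replicate 1, where these bases had depths of 116 and 66, gave the top value at both. C109 and C242 were likewise highest in that library, and C144 had 0.435% ± 0.232 with mL and 0.488% ± 0.607 with WT (SD, n = 3). C204 and C144 were also not called between DMS and no DMS (edgeR adjusted p = 0.525 and 0.731 with mL, 0.968 and 0.185 with WT).

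C144 was the 1 base with enough mutations for the test between untreated mL and WT libraries. It was not called (log2 change -0.41, SE 0.727, n = 3, edgeR adjusted p = 0.946; 2.82% of 213 sites along RDN37 were called). The other 117 had too few mutations or too little depth for this filter and were not tested. With a minimum of 10 mutations 9 bases were tested, 6 of them lower with mL, and 0 were called (edgeR, smallest adjusted p = 0.937).

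Depth relative to 18S was higher in each DMS-treated mL library than in any DMS-treated WT library. With DMS, the median depth of the 118 bases was 2.76, 2.79 and 3.35 times that of the A and C of 18S in mL libraries and 1.83, 2.07 and 2.38 times in WT libraries. The mL value was 1.42 times the WT value without overlap, and the exact two-sided permutation p = 0.1 is the smallest that 3 libraries against 3 allow. Leaving out 1 library at a time gave 1.33 to 1.52 times. Without DMS the ratios were 1.99, 2.16 and 2.32 with mL and 1.81, 1.25 and 2.13 with WT, which overlapped (1.25 times, exact permutation p = 0.2). The lowest ratio was that of WT untreated replicate 2, the library that stood apart in 18S. Without that library mL was 1.10 times WT. Against the remainder of the 5′ ETS the first 280 nucleotides had 1.85 ± 0.107 times the depth with mL and 1.71 ± 0.132 with WT (SD, n = 3, exact permutation p = 0.3), and 1.64 ± 0.0316 and 1.71 ± 0.0924 without DMS (exact permutation p = 0.4). By this measure the DMS-treated mL value was 1.09 times the WT value, with overlap. The higher depth over 18S with mL was thus not shown to be particular to the first 280 nucleotides. More molecules and easier recovery of their fragments cannot be told apart here.

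Depth was uneven within the stretch. At positions 121 to 160 it was 5.20, 7.17 and 8.06 times the 18S depth in DMS-treated mL libraries and 2.59, 2.60 and 4.72 times in WT libraries, 2.06 times as high with mL and without overlap. At positions 41 to 80 the values were 4.48 ± 0.398 and 4.11 ± 0.769 (SD, n = 3), which overlapped, and the ratio of mL to WT was 1.09. In the remaining 5 windows the ratio was 1.29 to 1.60. The windows past position 120 separated the groups and those before it did not, a division seen after the values were known and not tested.

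**Figure D4:**
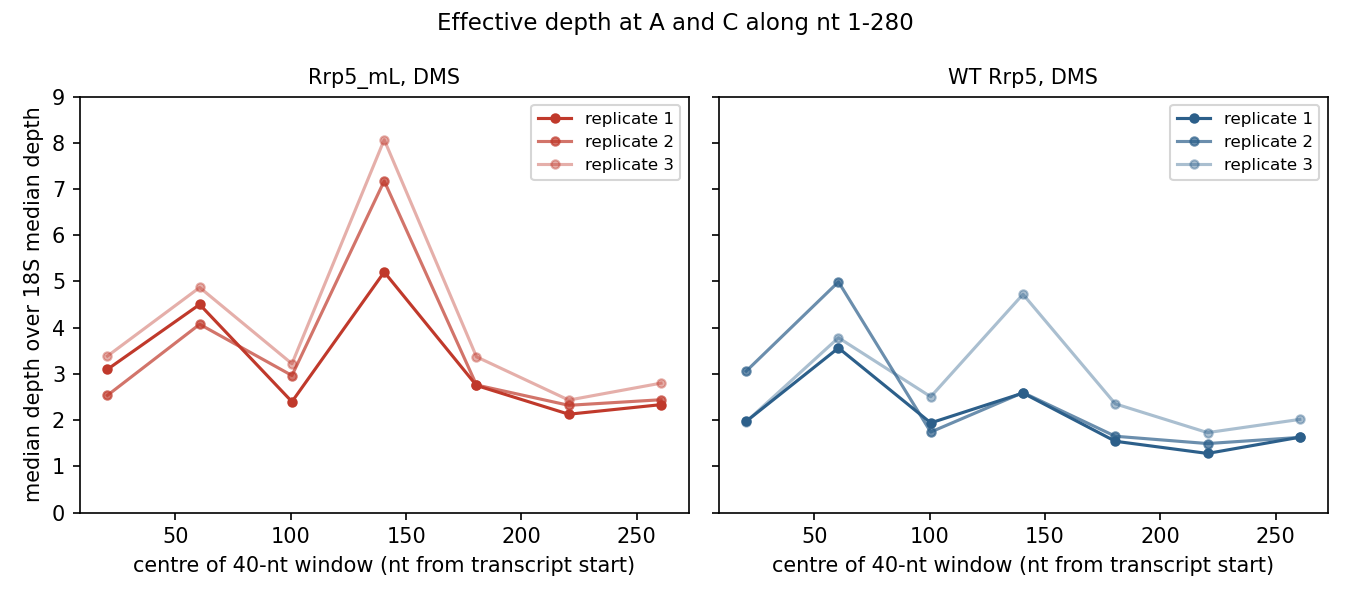
Median effective depth of the A and C in each of 7 windows of 40 nucleotides, over the median depth of the A and C of 18S, in each DMS-treated pre-40S library, with Rrp5_mL on the left and WT Rrp5 on the right. Positions 121 to 160 reach 5.20 to 8.06 with mL and 2.59 to 4.72 with WT.

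In mature ribosomes the spacer was all but gone. The median depth of the 118 bases was 29, 26 and 16 reads in DMS-treated deletion libraries and 9, 7 and 22 reads in BY4741 libraries, and 39, 48 and 26 against 18, 16 and 21 without DMS. As a multiple of the 18S depth this was 0.000893 ± 0.000204 in the deletion and 0.000509 ± 0.000258 in BY4741 with DMS (SD, n = 3, 1.75 times, exact permutation p = 0.3, with overlap). Without DMS it was 0.000979 ± 0.000168 and 0.000541 ± 0.000224 (1.81 times, exact permutation p = 0.1, without overlap). The untreated ratio was 1.55 to 2.36 with 1 library left out, and the treated one 1.49 to 2.47. The lowest p that this design allows is 0.1.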

How the data were processed

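Each deposited profile gives, at RDN37 positions 1 to 6858, counts of mutated reads, counts of effective depth and a fraction, the rate; the authors made them from single-end reads of 100 bp. Bowtie2 is named per the submitters' processing notes, without a version; the sources used here name no mutation counter, filters or genome build, so no chromosome coordinates are printed. The deposited fraction equals mutations over effective depth within 5e-07. The control columns inside the files were empty (depth 0), and untreated libraries gave the background. Molecular identifiers are not mentioned, and reads that are PCR copies are not independent molecules. At most 1.32% of positions read in both libraries of a pair had identical values, so each counted as its own sample.

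Counts were tested with edgeR 4.0.16 (quasi-likelihood, R 4.3.3) on the whole table, with Benjamini-Hochberg adjustment over all tested sites and a call at an adjusted p under 0.05. A site needed a depth of 50 in each library of its test. The fits of mL against WT and of DMS against no DMS were tried on simulated counts, and the strain by DMS fit was not. The simulation used a fixed dispersion, upward changes alone and no library factors. It therefore did not cover the mL against WT fits as they were run. DESeq2 1.42.0, limma 3.58.1, other minima, factors and left-out libraries were alternatives. RNAfold 2.7.2 gave the predicted structure. Depth ratios used exact permutation tests over libraries. The sites named are those called between mL and WT (none), the 12 with the highest WT rate, the 10 with the smallest p between mL and WT and the 5 with the highest untreated rate, plus a few said to be chosen after their values were seen. The members, rules and tests were chosen with earlier results of these data known.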

Additional observations from a re-analysis of the deposited data

Results flagged for a closer look

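Mutations at the first 280 nucleotides of the mature libraries, where depth alone was compared, were above the untreated level with DMS. In the deletion the pooled rate at A and C was 1.46% with DMS (117 mutations in 8027 read positions, exact 95% interval 1.21% to 1.74%) and 0.02% without it (3 in 14991, 0.00413% to 0.0585%). In BY4741 it was 0.984% (49 in 4980, 0.729% to 1.30%) and 0.0944% (7 in 7419, 0.0379% to 0.194%). The intervals cover counting error only, and the strains were not compared.

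The other bases of the same stretch also lay above their untreated level in WT particles, in every DMS-treated library against every untreated one. G averaged 0.392% ± 0.0341 with DMS and 0.207% ± 0.0683 without it, and U 0.0716% ± 0.0154 and 0.0435% ± 0.00448 (SD, n = 3). With Rrp5_mL the libraries overlapped, at 0.44% ± 0.00527 and 0.388% ± 0.0766 for G and 0.0673% ± 0.00441 and 0.0443% ± 0.0263 for U.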

How the results depend on the processing

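The count of 0 called bases between mL and WT held in 15 of 16 alternatives and was 1 without WT DMS replicate 3 (C160), so that leaving out a library gave 0 to 1; the strain by DMS count stayed 0 in 15 of 15, and the untreated count 0 in 12 of 12. Over all sites tested between treated mL and WT, 3 were called, against 17 with no filter on treated over untreated rate, 0 by DESeq2 and limma, 1 with no library factor, with a minimum of 10 mutations or with the replicate block, and 0 to 5 with a library left out. Without DMS 6 were called over all sites, against 2 by DESeq2, 0 by limma or with the block, 9 at a minimum depth of 20, 2 at 100 and 13 with a minimum of 10 mutations, and 0 to 14 with a library left out. For the interaction 12 were called, against 21 at a minimum depth of 20 and 4 to 20 with a library left out. A minimum depth of 200, and leaving out mL untreated replicate 3 or WT untreated replicate 2, left no base to test between untreated libraries. The 58 bases raised by DMS with WT became 41 to 60. The 75 raised with mL became 48 with a minimum of 30 mutations, which keeps fewer bases, and 64 to 76 with a library left out. The difference in mean rate between positions 1 to 280 and the remainder of the 5′ ETS was at A -0.25 points, -0.174 after subtracting the untreated rate and -0.101 as a median. At C it was -0.05, turned to 0.0133 after subtraction and became -0.281 as a median; the cause was not tested. The excess at predicted unpaired bases, 3.69 points at A and 4.06 at C, was 3.93 at A as a median and 4.81 at C with a fold of positions 1 to 700. All depth ratios kept their direction in 9 of 9 alternatives each. Untreated mL over WT against 18S was 1.10 to 1.86, the latter by mean depth, where the deep 18S site of WT untreated replicate 2 enters. With a library left out it was 1.10 to 1.41, and the 1.10 is the value without WT untreated replicate 2. A replicate block gave 0 called bases between mL and WT with and without DMS, 74 with DMS against none with mL, 56 with WT and 0 for the interaction. Deviations from the group means correlated at 0.0442, 0.0204 and 0.0249 between same-numbered treated libraries of mL and WT. Between differently numbered ones r was -0.0361 to 0.0106. For same-numbered untreated libraries it was -0.191, -0.109 and -0.0804. Such values do not settle whether libraries were paired, and the main fits used no pairing. Depth limits single bases: 52 of 118 had too few mutations for the treated comparison.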

Other observations

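Reactivity at A differed with the base before it, described here with no test since the bases also differ in predicted pairing. The 22 A that follow an A averaged 3.09% ± 0.0569 with mL and 2.92% ± 0.246 with WT, and the 25 A that follow a G averaged 1.54% ± 0.16 and 1.52% ± 0.0361 (SD over libraries, n = 3). The 11 C that precede a U were the least reactive of the C by following base, at 0.188% ± 0.0167 with mL and 0.193% ± 0.0308 with WT. The 13 C that precede an A averaged 1.88% ± 0.0932 and 2.06% ± 0.0872.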
